A study of Danio rerio with 8 samples.

Results

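The 4 genes described here, bhmt, ucp1, ces2a and fabp10a, encode metabolic proteins that fish or mammals make mainly or largely in the liver, and they were read in RNA of whole zebrafish ovary. They were taken as every probe set whose annotated symbol is bhmt, ucp1, ces2a or fabp10a, which gave 6 of the 15502 probe sets that are not controls and 4 of the 8793 named genes. bhmt and ces2a have a pair of probe sets each, called A and B below, and ucp1 and fabp10a have 1 each. Their Entrez Gene numbers in the platform annotation are 322228 (bhmt), 83908 (ucp1), 566132 (ces2a) and 171481 (fabp10a). The genes were chosen by their measured difference between the 10 and 0 ppb pools, in which bhmt, ucp1 and ces2a stood high, with fabp10a set beside them as a liver marker. Differences that involve the 10 ppb pool are therefore given as a description, without a test.

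The study asked which ovarian transcripts respond to TCDD (2,3,7,8-tetrachlorodibenzo-p-dioxin), a contaminant that activates the aryl hydrocarbon receptor. Adult AB-strain zebrafish females aged 6 to 8 months were fed for 15 days on trout chow carrying 0 ppb (the acetone solvent alone), 10 ppb, 40 ppb or 100 ppb of tritium-labelled TCDD, where 1 ppb is a nanogram per gram of food. At each dose the RNA of 5 ovaries, 3 µg per fish, was combined into 1 pool of 15 µg, and each pool was run on 2 Affymetrix arrays. The labels give 5 females per dose, so the 2 arrays of a dose are taken as technical replicates of the same pool, and every SD, SE and p-value below measures the spread between arrays and none measures the spread between fish.

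Betaine-homocysteine methyltransferase (bhmt) moves a methyl group from betaine, a breakdown product of choline, onto homocysteine and so regenerates methionine. Methionine adenosyltransferases turn that methionine into S-adenosylmethionine, the methyl donor of most methyltransferases. ucp1 encodes a carrier of the mitochondrial inner membrane that lets protons back into the matrix; in mammals it makes heat in brown fat, and in the common carp its ortholog is expressed mainly in liver. Carboxylesterases such as ces2a hydrolyse esters of lipids and drugs. fabp10a encodes the liver basic fatty acid binding protein, which also binds bile acids, and its promoter is widely used to mark hepatocytes in zebrafish.

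All values below are intensities on the scale log2(intensity + 16) after quantile normalization between the 8 arrays, unless called deposited. A value counted as above background when the deposited intensity exceeded the 95th percentile of 17 control probe sets that match no zebrafish transcript (tag controls). The median deposited intensity per array lay between 28.1 and 62.25, and 63.6% to 79.5% of probe sets per array were above the tag controls. The instrument files placed replicate 1 of the 10 ppb pool alone on day 1, replicate 1 of the other 3 pools on day 2 and replicate 2 of every pool on day 3. The 10 ppb arrays stood apart from each other: 1.59% of 9301 tested probe sets were at least 2-fold higher on replicate 1 than on replicate 2, compared with 0.183% at 0 ppb, 0.043% at 40 ppb and 0.043% at 100 ppb. The ovary label was checked with 13 oocyte marker genes on the array, of which 12 or 13 were above the tag controls on every array.

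bhmt stood far above its other levels on both 10 ppb arrays, and by unequal amounts. Probe set A read 5.50 and 5.55 on the 0 ppb arrays, 10.90 and 8.85 on the 10 ppb arrays, 5.36 and 5.78 on the 40 ppb arrays, and 5.98 and 6.13 on the 100 ppb arrays. Probe set B read 5.25 and 5.11 for the 0 ppb pool, 9.81 and 7.47 for 10 ppb, 5.61 and 5.27 for 40 ppb, and 5.72 and 5.78 for 100 ppb. Both probe sets thus put the 10 ppb pool first and both were above the tag controls on all 8 arrays. In deposited intensities, probe set A read 1974.9 on replicate 1 and 307.5 on replicate 2 of the 10 ppb pool, against 45 and 22.2 at 0 ppb. The order of the pool means for probe set A was 10 ppb (9.88 ± 1.45, SD, n = 2 arrays), 100 ppb (6.05 ± 0.11), 40 ppb (5.57 ± 0.30) and 0 ppb (5.53 ± 0.032). The arrays of 40 and 0 ppb overlapped, and the other neighbours in this order did not. Probe set B gave the same order, with means of 8.64 ± 1.65, 5.75 ± 0.042, 5.44 ± 0.24 and 5.18 ± 0.099, and no neighbours overlapped. With 2 arrays per pool such separation is common, so these orders are a description. For example, both 100 ppb arrays lay above both 0 ppb arrays in 29.5% of all tested probe sets.

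ucp1 had the same high point at 10 ppb and was dimmest at 40 ppb. It read 5.46 and 5.28 for 0 ppb, 9.61 and 8.01 for 10 ppb, 4.32 and 4.49 for 40 ppb, and 5.16 and 4.65 for 100 ppb. Both 40 ppb arrays and replicate 2 of the 100 ppb pool lay below the tag controls, so its level at 40 ppb is only an upper bound. Its pool means were in the order 10 ppb (8.81 ± 1.13), 0 ppb (5.37 ± 0.13), 100 ppb (4.90 ± 0.36) and 40 ppb (4.41 ± 0.12). This order too is a description: both 10 ppb arrays lay above both 0 ppb arrays in 19% of all tested probe sets.

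ces2a was carried by probe set A alone, which read 5.10 and 5.17 for 0 ppb, 8.85 and 6.87 for 10 ppb, 5.01 and 4.88 for 40 ppb, and 5.13 and 4.96 for 100 ppb. Both 10 ppb arrays stood above every other array, as 4 of the 6 probe sets did over the 0 ppb arrays and 19% of all tested probe sets did. The 0, 100 and 40 ppb pools were close, and the 100 ppb arrays overlapped those of each neighbour in level. Probe set B, annotated with the same gene, was below the tag controls on all 8 arrays, with values between 4.09 and 4.49, and it did not show the high level at 10 ppb. The identifier of probe set B shares its first part with the probe set annotated as ces3, another carboxylesterase gene, so which gene probe set B measures is uncertain.

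fabp10a was detected on every array and did not share the pattern of the other genes. It read 6.62 and 6.88 for 0 ppb, 7.65 and 6.49 for 10 ppb, 6.39 and 6.11 for 40 ppb, and 6.81 and 6.97 for 100 ppb. Replicate 1 of the 10 ppb pool was the highest of the 8 arrays, while replicate 2 lay below both 0 ppb arrays. The pool means were 7.07 ± 0.82 at 10 ppb, 6.89 ± 0.12 at 100 ppb, 6.75 ± 0.18 at 0 ppb and 6.25 ± 0.20 at 40 ppb, an order given as a description.

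**Figure D1:**
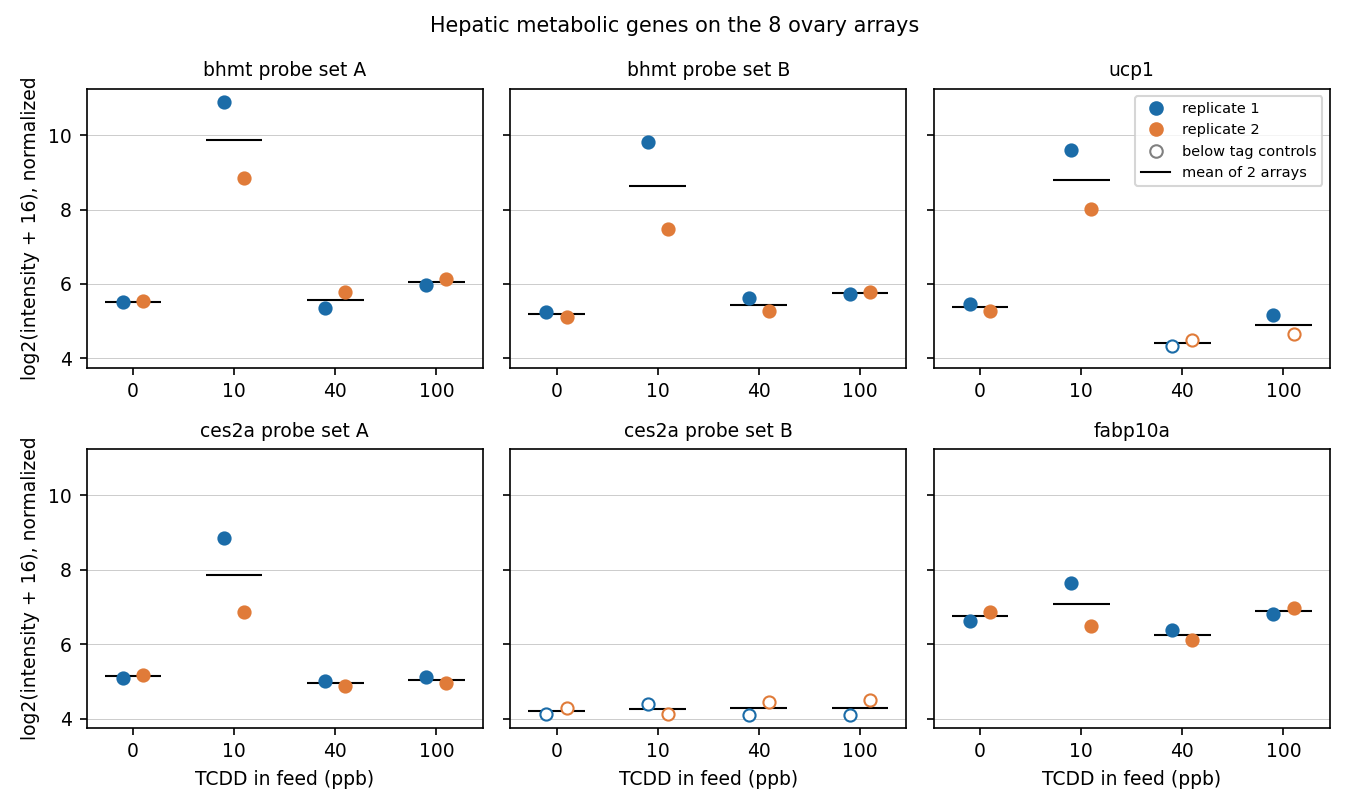
Normalized log2(intensity + 16) of the 6 probe sets (vertical axes) against the TCDD content of the feed in ppb (horizontal axes), with replicate 1 in blue, replicate 2 in orange, open circles for arrays below the tag controls and a line at the mean of 2 arrays. Both 10 ppb arrays stand above all others for both bhmt probe sets, ucp1 and ces2a probe set A, and replicate 1 lies above replicate 2; fabp10a at 10 ppb has its highest reading on replicate 1 (7.65) and 6.49 on replicate 2.

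The 10 ppb pool was compared with the 0 ppb pool to see what the lowest dose changed. Of the 6 probe sets 4 were at least 1 log2 unit higher at 10 ppb; among all 9301 tested probe sets this share was 0.989%, and since this comparison chose the genes nothing is read from the count. The mean differences were 4.35 for bhmt probe set A (20.4-fold), 3.46 for bhmt probe set B, 3.44 for ucp1 (10.8-fold) and 2.73 for ces2a probe set A (6.62-fold). The difference was 0.32 for fabp10a (1.25-fold), with -0.01 under the deposited scaling and -0.28 with day as a block, and neither pool measured ces2a probe set B. Because 16 is added to each intensity, these folds understate the change of dim probe sets.

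These means hide how differently the 10 ppb arrays read. Against the mean of the 0 ppb arrays, bhmt probe set A was 41.4-fold higher on replicate 1 and 10.0-fold higher on replicate 2. bhmt probe set B was 24.6-fold and 4.89-fold higher on those arrays, ucp1 18.9-fold and 6.22-fold, and ces2a probe set A 13.2-fold and 3.34-fold. For fabp10a the log2 difference from the 0 ppb mean was 0.90 on replicate 1 and -0.26 on replicate 2, so that its sign depended on the array. Within day 3, the only day that holds arrays of both pools, the 10 minus 0 ppb differences were 3.30 and 2.36 for the bhmt probe sets, 2.73 for ucp1, 1.70 for ces2a probe set A and -0.38 for fabp10a.

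The gap between the 10 ppb arrays was itself among the widest on the array for these genes. Replicate 1 minus replicate 2 was 2.33 log2 units for bhmt probe set B (rank 7 of 9301), 2.05 for bhmt probe set A (rank 27), 1.98 for ces2a probe set A (rank 31), 1.60 for ucp1 (rank 70) and 1.16 for fabp10a (rank 116). In the other 3 pools the gaps of all 6 probe sets lay between -0.42 and 0.51. The labels describe the RNA of the same 5 fish for both arrays, and the 10 ppb arrays were the only pair in which replicate 1 did not share its day with other pools; the part of day in the gap was not tested.

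**Figure D2:**
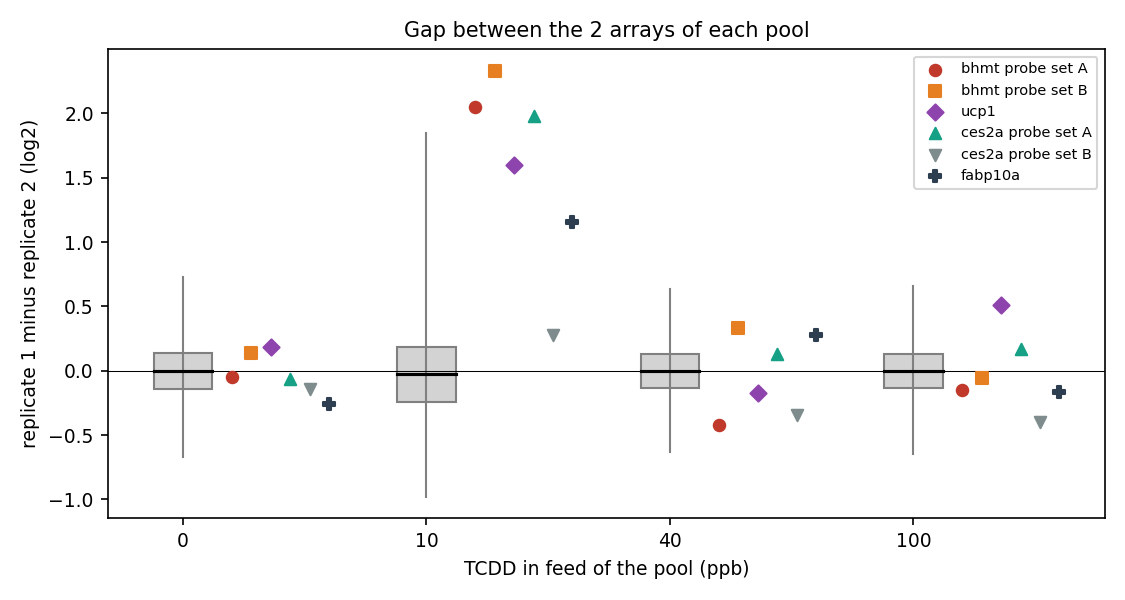
Replicate 1 minus replicate 2 (log2, vertical axis) in each pool by TCDD content of the feed in ppb, with grey boxes for the quartiles of 9301 tested probe sets, the median as a line, and whiskers at the 0.5th and 99.5th percentiles; coloured symbols are the 6 probe sets. At 10 ppb both bhmt probe sets and ces2a probe set A lie above the upper whisker, with gaps of 1.98 to 2.33, while in the other pools the symbols lie between -0.42 and 0.51.

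Most tested liver plasma protein genes moved with bhmt, ucp1 and ces2a in the 10 ppb pool. Of 33 liver plasma protein genes listed, 23 were on the array and 20 were tested; 12 rose at 10 ppb in limma's test (adjusted p under 0.05 and a log2 difference of at least 1, a call that 0.645% of all tested probe sets made as higher), none fell and 8 did not pass. This count was 3 without either 0 ppb array, 12 without replicate 1 and 18 without replicate 2 of the 10 ppb pool. Of the 12 genes, 4 (hpxb, plg, apobb.1 and c3a.1) entered the test only through their level at 10 ppb, and with the filter taken over the 6 arrays of the other pools 9 plasma protein genes rose. The median difference of the 20 tested genes was 3.08, against -0.02 over all tested probe sets. The list includes transferrin (tfa), the iron carrier of plasma, which rose by 3.46 ± 0.26 (limma adjusted p = 0.000101). Its 10 ppb arrays were the closest of the 12 genes, with a gap of 1.02 log2 units against a median of 2.11. The summed normalized intensity of the 23 genes was 20078 on replicate 1 and 5407 on replicate 2 of the 10 ppb pool, 1305 to 1338 at 100 ppb, 902 to 1015 at 40 ppb, and 1318 on both 0 ppb arrays. On replicate 1 of the 10 ppb pool 21 of the 23 were at least 1 log2 unit above the 0 ppb mean, and on replicate 2 this held for 13. Of all 15502 probe sets, 1.3% were that high on replicate 1 and 0.548% on replicate 2. On replicate 2, 1 of the 23 was at least 1 log2 unit lower: rbp4 read 7.90 and 6.22 on the 10 ppb arrays, against 7.34 and 7.56 at 0 ppb. All 23 genes were above the tag controls on both 10 ppb arrays.

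The excess over the 0 ppb level was larger on replicate 1 than on replicate 2 for bhmt, ucp1, ces2a and the plasma protein genes. In normalized intensity, the excess on replicate 1 was 4.48 and 6.07 times that on replicate 2 for the bhmt probe sets, 5.21 times for ces2a probe set A and 3.42 times for ucp1. For the 12 plasma protein genes that rose it was 2.18 to 9.01 times, with a median of 5.16. fabp10a had no excess on replicate 2.

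Genes of liver cells other than plasma proteins gave a mixed record. Of 16 listed, 8 were on the array, and beside fabp10a only igfbp1a and cebpa were tested. igfbp1a, an insulin-like growth factor binding protein gene of liver, rose by 2.19 ± 0.39 at 10 ppb (adjusted p = 0.0156), with 8.53 and 6.97 on the 10 ppb arrays, against 5.44 and 5.68 on the 0 ppb arrays. A second probe set of igfbp1a read 8.05 and 6.00 at 10 ppb, against 5.39 and 5.28 at 0 ppb. hnf4a, a transcription factor gene of hepatocytes, was near background, at 5.14 and 4.92 at 10 ppb, against 4.81 and 4.16 at 0 ppb, and foxa3, a further such gene, stood at 4.93 and 4.44, against 4.87 and 4.36; hnf4a was above the tag controls on 4 of 8 arrays and foxa3 on 2. cebpa, a transcription factor gene of liver and fat, went the other way from igfbp1a at 10 ppb without passing (10 minus 0 ppb difference -0.76, limma adjusted p = 0.0825). It was called lower than at 0 ppb both at 40 ppb (log2 difference -1.06, limma adjusted p = 0.0464) and at 100 ppb (-1.37, adjusted p = 0.00374). The sum over this list without fabp10a was 211 to 444 at 10 ppb, 66.5 to 80.8 at 100 ppb, 81.5 to 96.2 at 40 ppb and 124 to 153 at 0 ppb. Of the 7 genes in this sum, igfbp1a alone was at least 1 log2 unit above the 0 ppb mean on either 10 ppb array. The sum therefore does not show a rise of the list as a whole.

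Pancreas markers, a neighbouring organ of the abdomen, were at least 1 log2 unit above the 0 ppb mean for 8 of 17 genes on replicate 1 of the 10 ppb pool and for 0 on replicate 2. Of all 15502 probe sets 1.3% and 0.548% were that high on these arrays. The summed intensity of the pancreas markers was 703 to 1953 at 10 ppb, against 723 to 734 at 0 ppb. In the same count, intestine markers gave 2 of 10 genes on replicate 1 and 0 on replicate 2, and adipose (4 genes), blood (7), follicle cell (11) and oocyte (13) markers gave 0 on each array. The oocyte markers summed to 20766 to 21357 at 10 ppb, against 19190 to 20516 at 0 ppb. What part liver or pancreas RNA had in the levels of bhmt, ucp1 and ces2a was not tested. In RNA of whole organs, fewer cells of a type and less RNA per cell cannot be told apart.

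The pools outside 10 ppb were compared to see whether these genes differed at higher doses. The 40 and 100 ppb arrays played no part in choosing the genes, but both comparisons with 0 ppb share the 0 ppb arrays with the comparison that did; 100 minus 40 ppb shares no pool with it. In limma's test none of the 5 tested probe sets passed in any of the 3 comparisons, where 0.344% (40 minus 0 ppb), 1.25% (100 minus 0 ppb) and 0.43% (100 minus 40 ppb) of all tested probe sets did. At an unadjusted p under 0.05 there was 1 in 40 minus 0 ppb (ucp1) and 0 in the others. Among all 9301 tested probe sets, 1084 (40 minus 0 ppb), 2154 (100 minus 0 ppb) and 1097 (100 minus 40 ppb) had such a p. ucp1 and ces2a probe set A entered the test only through their level at 10 ppb: over the other 6 arrays their means, 4.89 and 5.04, fell under the filter value of 5.10. Their differences are therefore given as a description, and nothing is read from their part in these counts.

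bhmt read slightly higher at 100 ppb than in the other 2 pools on both probe sets. The 100 minus 0 ppb difference was 0.53 ± 0.48 for probe set A (SE; 95% interval -0.53 to 1.58; limma adjusted p = 0.544) and 0.57 ± 0.53 for probe set B (-0.62 to 1.75; adjusted p = 0.562). Within days 2 and 3 it was 0.48 and 0.58 for probe set A and 0.47 and 0.67 for probe set B. Both 100 ppb arrays were above both 0 ppb arrays in both probe sets, which held for 29.5% of all tested probe sets. At 40 minus 0 ppb the differences were 0.05 ± 0.48 (-1.01 to 1.1; adjusted p = 0.983) and 0.26 ± 0.53 (-0.93 to 1.44; adjusted p = 0.895). At 100 minus 40 ppb they were 0.48 ± 0.48 (-0.57 to 1.54; adjusted p = 0.755) and 0.31 ± 0.53 (-0.87 to 1.49; adjusted p = 0.879).

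ucp1 read lower at 40 ppb than at 0 ppb, which is given as a description. Its log2 difference was -0.96 ± 0.40 (-1.85 to -0.08), with -1.14 on day 2 and -0.79 on day 3. It was -2.11 with a pseudocount of 1 and -0.37 with one of 64. Since both 40 ppb arrays were below the tag controls, ucp1 had a mean there at least 1.45-fold lower, a bound without the array spread. At 100 minus 0 ppb it differed by -0.46 ± 0.40 (-1.35 to 0.42) and at 100 minus 40 ppb by 0.50 ± 0.40 (-0.38 to 1.38), where 3 of these 4 arrays were below the tag controls.

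The 3 differences of ces2a probe set A were all within 0.19 of 0. They were -0.19 ± 0.46 at 40 minus 0 ppb (-1.21 to 0.83), -0.09 ± 0.46 at 100 minus 0 ppb (-1.11 to 0.93) and 0.10 ± 0.46 at 100 minus 40 ppb (-0.92 to 1.12), given as a description. fabp10a was lowest in the 40 ppb pool: it differed by -0.50 ± 0.30 at 40 minus 0 ppb (-1.16 to 0.17; limma adjusted p = 0.567), by 0.14 ± 0.30 at 100 minus 0 ppb (-0.52 to 0.80; adjusted p = 0.821) and by 0.64 ± 0.30 at 100 minus 40 ppb (-0.03 to 1.30; unadjusted p = 0.0578, adjusted p = 0.447). Its 100 minus 40 ppb difference was 0.42 on day 2 and 0.86 on day 3.

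**Figure D3:**
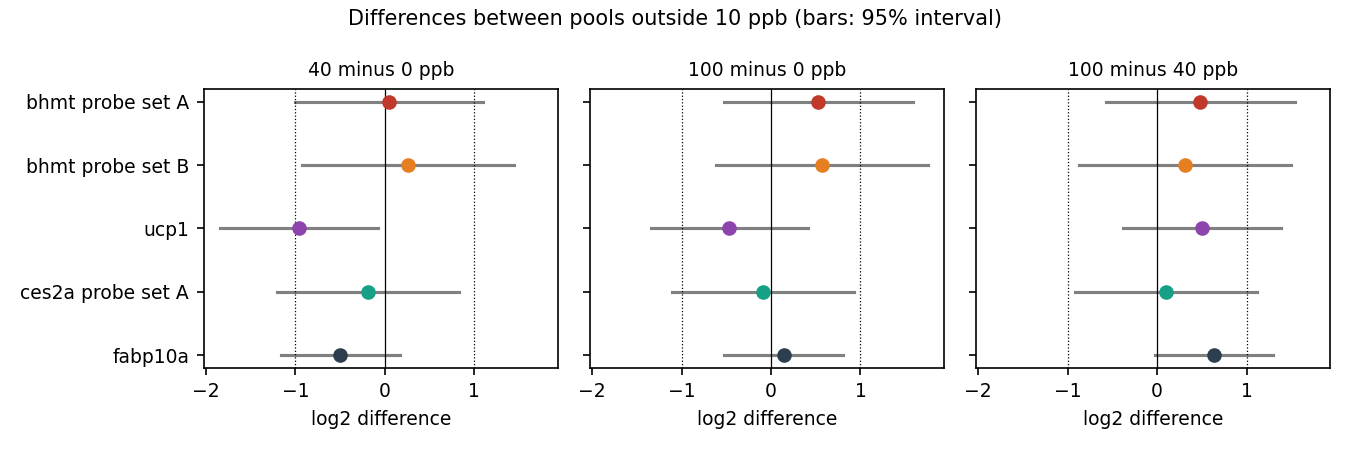
Log2 differences (horizontal axes) of the 5 tested probe sets between the 40, 100 and 0 ppb pools, with bars for the 95% interval of limma's fit over all 8 arrays and dotted lines at -1 and 1. The bar of ucp1 in 40 minus 0 ppb (-1.85 to -0.08) is the only bar that leaves out 0, and none of the 15 differences passed.

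These intervals are wide because the fit shares the array spread over all pools, and the 10 ppb arrays supply 88.8% to 98.7% of it for the 5 tested probe sets. With only the compared pools in the fit, the adjusted p of bhmt in 100 minus 0 ppb was 0.0497 for probe set A and 0.0423 for probe set B. With day as a block, in which replicate 1 of the 10 ppb pool has a day of its own, it was 0.0206 for both bhmt probe sets, and 0.0385 for fabp10a in 100 minus 40 ppb. ucp1 entered the test only through its level at 10 ppb, and both its 40 ppb arrays were below the tag controls. No p-value is therefore given for ucp1 here. These differences of bhmt and fabp10a were under the minimum of 1 in size, so that neither gene passed there.

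The 4 high probe sets followed each other over the 8 arrays, mostly through the 10 ppb arrays. Pearson's r between pairs of them was 0.942 to 0.985, and with fabp10a it was 0.634 to 0.686. The points share RNA pools and array scaling, and r is a description. The genes were chosen for a high level at 10 ppb. That choice alone sets a high r between them and with any other gene that was high there. Over the 6 arrays of the other pools r was 0.57 between the bhmt probe sets and 0.81 between ucp1 and ces2a probe set A, and it was -0.41 to -0.05 between bhmt and the other 2. Of these arrays, ucp1 was below the tag controls on both at 40 ppb and on replicate 2 at 100 ppb. ces2a probe set A read only 4.88 to 5.17 there, so nothing is read from the r of 0.81. Among 7095 candidate probe sets, the 5 genes most like bhmt probe set A in r were complement c9 (0.993), complement c3a.1 (0.992), the apolipoprotein gene apobb.1 (0.991), cfhl4 (0.991) and mfap4.5 (0.990). For bhmt probe set B they were mfap4.5 (0.998), c9, a2m2h, apobb.1 and c3a.1 (0.987), and for ces2a probe set A c3a.1 (0.998), c9, apobb.1, c4b and a2m2h (0.992). For ucp1 they were plasminogen (plg, 0.994), fibrinogen beta (fgb, 0.993), tfa (0.990), cfhl4 (0.987) and c9 (0.986). fabp10a had other neighbours: neurog1 (0.976), bdh2 (0.975), leg1.1 (0.970), sirt6 (0.944) and insra (0.929).

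Other genes of the same pathways were looked at to see how far the pattern extended. Of 29 methionine and betaine cycle genes 18 were on the array, and without bhmt 16 were tested: 1 rose at 10 ppb over 0 ppb, none fell and 15 did not pass, with a median difference of -0.05 against -0.02 over all tested probe sets. The gene that rose was mat1a, the liver-type methionine adenosyltransferase gene, which like ucp1 entered the test only through its level at 10 ppb: its mean over the other 6 arrays was 4.85, against a filter value of 5.10. It read 4.95 and 5.01 for 0 ppb, 9.25 and 7.37 for 10 ppb, 4.69 and 4.38 for 40 ppb, and 4.88 and 5.19 for 100 ppb. Since mat1a entered in this way, its differences are given as a description, without a p-value. Its 10 ppb mean was higher than its 0 ppb mean by 3.33 and higher than its 100 ppb mean by 3.27. The count over the 8 pathway lists changed when single arrays were left out. In the 40 ppb pool mat1a was under the tag controls on each array. Its mean there was at least 11.1-fold below that of the 10 ppb pool, a bound without the array spread.

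mat2aa, the adenosyltransferase gene of most tissues, read between 10.33 and 10.57 on all 8 arrays, and ahcy, which clears S-adenosylhomocysteine, between 9.87 and 10.24. gamt, which makes creatine with a methyl group from S-adenosylmethionine, read 8.43 and 6.83 at 10 ppb, against 6.28 and 6.44 at 0 ppb, and did not pass (difference 1.27, adjusted p = 0.132). It was lower at 40 than at 10 ppb by 1.90 ± 0.38 (limma adjusted p = 0.0381), where 0.677% of all tested probe sets were called lower. gnmt, which methylates glycine, read 8.02 and 7.43 at 10 ppb, against 7.29 and 7.19 at 0 ppb (adjusted p = 0.229).

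Relatives of ucp1, ces2a and fabp10a were read beside them. ucp2, a paralog of ucp1, read between 10.22 and 10.69 on all arrays, and ucp3 was below the tag controls on all 8. ces2b, the neighbouring paralog of ces2a, read 5.92 and 5.60 at 10 ppb, against 5.37 and 5.45 at 0 ppb. ces3 read 6.95 and 5.38 at 10 ppb, against 4.17 and 4.43 at 0 ppb, and was above the tag controls on the 2 arrays of the 10 ppb pool alone; it was below the filter and was named after its values were seen, as was fabp6. Like ces2a probe set A, ces3 read highest on both 10 ppb arrays, with replicate 1 above replicate 2. Of the fatty acid binding proteins, fabp1a and fabp1b.1 were below the tag controls on all 8 arrays, and fabp3, the heart type, read between 9.82 and 10.41. fabp6, the ileal bile acid binding protein, went the other way from bhmt, with 4.19 and 4.66 at 10 ppb, against 6.66 and 6.52 at 0 ppb, and it read 4.15 to 4.83 at 40 and 100 ppb. fabp6 was below the filter over all arrays. Over the 6 arrays of the other pools its mean was 5.24, against a filter value of 5.10. It passed that filter only through its level at 0 ppb, so no test of its fall at 10 ppb is given.

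In the other 7 pathway lists (mitochondrial carriers, esterases and lipases, fatty acid binding proteins, gluconeogenesis, amino acid breakdown, fatty acid oxidation, and detoxification with bile acid enzymes) 45 genes were tested without the 4 genes, and none passed at 10 minus 0 ppb in limma's test, with 7 at an unadjusted p under 0.05 and a median of -0.04. Of all 9301 tested probe sets, 1397 had an unadjusted p under 0.05 in that comparison. Many genes of these 7 lists were below the filter. Counting all 105 genes of the 8 lists on the array, 17 (16.2%) were at least 1 log2 unit above the 0 ppb mean on replicate 1 of the 10 ppb pool, compared with 1.3% of all 15502 probe sets, and 2 (1.90%) on replicate 2, compared with 0.548%. Of 18 genes of amino acid breakdown 7 were that high on replicate 1 and 0 on replicate 2. Examples named after their values were seen are tdo2a, which opens tryptophan breakdown, at 6.64 and 5.28 on the 10 ppb arrays, against 4.56 and 4.65 at 0 ppb, and hpda, of tyrosine breakdown, at 7.12 and 5.28, against 5.23 and 4.93.

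None of the 61 tested pathway genes passed at 40 minus 0, 100 minus 0 or 100 minus 40 ppb in limma's test, with 4, 14 and 10 at an unadjusted p under 0.05. In the same order, 1084, 2154 and 1097 of all 9301 tested probe sets had such a p. The 20 plasma protein genes had none that passed in these comparisons either, with 2 at an unadjusted p under 0.05 in each, and medians of -0.21, 0.05 and 0.28. With day as a block 2, 2 and 1 of them passed.

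**Figure D4:**
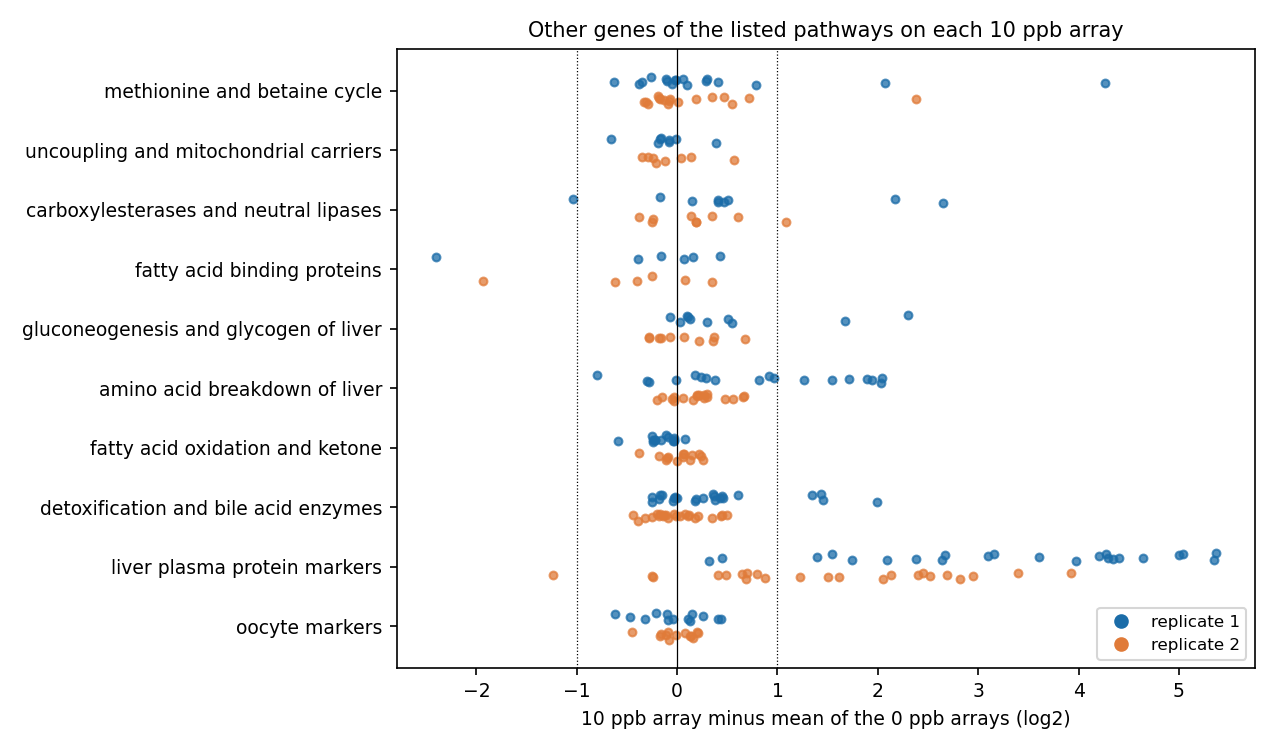
Difference of each 10 ppb array from the mean of the 0 ppb arrays (log2, horizontal axis) for the other genes of 8 pathway lists and for liver plasma protein and oocyte markers, 1 point per gene and array, with replicate 1 in blue and replicate 2 in orange and dotted lines at -1 and 1. Of the plasma protein markers 21 of 23 lie past 1 on replicate 1 and 13 on replicate 2, of the 105 pathway genes 17 and 2, and of the 13 oocyte markers 0 and 0.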

How the data were processed

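The deposited table holds 1 linear intensity per probe set and array, made by the authors with MAS5, per the submitters' processing notes; neither its version nor its scaling target is stated there. The deposited instrument files hold other measurements, per the file headers, and served for the day of each array. Of 15617 probe sets, 115 controls were left out; 10795 had 1 symbol, 135 several and 4572 none, and none was named from several. log2(intensity + 16) was quantile normalized. Probe sets above the 40th percentile of the mean (5.11), 9301 in all, were tested with limma 3.58.1 in R 4.3.3 (lmFit on 4 group means, eBayes with trend, Benjamini-Hochberg), calling an adjusted p under 0.05 with a log2 difference of at least 1. Where a pool lay below the tag controls on both arrays, a fold is a bound against the higher of its value and the lowest value above them. The fit was tested on simulated data. The number of arrays limits the precision.

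The genes, the 16 gene lists and the tests were chosen with earlier results of these data known. Named are all probe sets of the 4 genes and, for each tested one, the 5 genes most like it in Pearson's r. Of the list genes that passed or stood highest in the control pool, only some are named. The plasma protein gene given as an example, tfa, was not the one with the largest rise. Other list genes in the text were named after their values were seen. A listed gene was represented by its brightest probe set. Alternatives were other scalings, pseudocounts and filters, blocks for replicate and day, only the compared pools, no minimum difference and leaving out each array. Replicate numbers pair arrays by day in the 0, 40 and 100 ppb pools but not in the 10 ppb pool; the fit has no block. No sequence or coordinate is given.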

Additional observations from a re-analysis of the deposited data

How the results depend on the processing

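The count of 0 passing probe sets of the 4 genes in 40 minus 0, 100 minus 0 and 100 minus 40 ppb, and the 4 of 6 at least 1 log2 unit higher at 10 ppb, were the same under every alternative run, including those without 1 array (0 to 0 and 4 to 4). 17 of 702 single values of these genes changed sign: 10 of ces2a probe set B, which was below the tag controls, 6 of fabp10a in comparisons with the 10 ppb pool, and 1 of bhmt probe set A, which at 40 minus 0 ppb was -0.17 without 40 ppb replicate 2 and 0.26 without 40 ppb replicate 1. fabp10a ran from -0.28 to 0.90 at 10 minus 0 ppb and from -0.76 to 0.42 at 100 minus 10 ppb. ucp1 at 40 minus 0 ppb ran from -2.11 to -0.37. Without both 10 ppb arrays, chosen after seeing the data, the adjusted p at 100 minus 0 ppb was 0.0417 for bhmt probe set B and 0.0620 for probe set A.

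In the order 10 minus 0, 40 minus 0, 100 minus 0 and 100 minus 40 ppb, the probe sets called among all tested were 103, 32, 116 and 40. They were 64, 4, 13 and 4 with the deposited scaling, 61, 15, 44 and 17 with a pseudocount of 64, 37, 15, 49 and 20 where the 60th percentile was the filter, and 226, 57, 481 and 83 with no minimum difference; a pseudocount of 1 gave 197 in 100 minus 0 ppb, and only the compared pools gave 55 in 10 minus 0 ppb. Without 1 array the counts were 19 to 187, 7 to 42, 71 to 129 and 10 to 60. Pathway genes called in 10 minus 0 ppb numbered 2 with a pseudocount of 64 or no filter and 0 with the 60th percentile. In 40 minus 0 ppb they numbered 1 with a pseudocount of 64, with no filter, without both 10 ppb arrays and with the filter taken over the 6 arrays of the other pools (also chosen after seeing the data). In 100 minus 0 ppb they numbered 2 with no filter, 3 with no minimum difference and 1 with either added alternative. Without 1 array they were 0 to 6, 0 to 1, 0 to 1 and 0 to 0. Liver plasma protein genes called in 10 minus 0 ppb numbered 6 with the 60th percentile. With day as a block, with only the compared pools and without both 10 ppb arrays they numbered 2 in 40 minus 0, 2 in 100 minus 0 and 1 in 100 minus 40 ppb; the trimmed mean, a pseudocount of 1 and the filter over 6 arrays gave 1 in 100 minus 0 ppb. Without 1 array they were 3 to 18, 0 to 2, 0 to 2 and 0 to 1. The cause of these shifts was not tested, beyond the fewer probe sets that a stricter filter leaves.

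Arrays with the same replicate number correlated in their deviations by 0.143 to 0.298 among the 0, 40 and 100 ppb pools, whose same-numbered arrays share a day, and by 0.0126 to 0.0464 with the 10 ppb pool, so the numbers do not pair the arrays of all 4 pools. The replicate block gave 1 liver plasma protein gene in 100 minus 0 ppb and left 0 of the 4 genes' probe sets called. Array number limits all of these values, and probe sets below the tag controls have only a bound.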
